A study of Mus musculus with 19 samples.

Results

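The sequences described here are reads of 29 to 34 nt from mouse sperm that start with A, C or G, do not end in CCA, were read 10 or more times in at least 4 of the 19 libraries, and match no annotated miRNA, rRNA, mitochondrial tRNA or other small RNA transcript in sense when up to 1 mismatch is allowed. By this rule 15674 distinct sequences were members, of 158815 sequences of 15 to 45 nt that met the same minimum of reads and of 39571 among them of 29 to 34 nt. The members were thus chosen by their read counts in these same libraries, so that their presence and level are given as descriptions. Small RNA sequencing was done on sperm of wild type mice that were 8 weeks old when an exposure of 4 weeks by oral gavage began, either to dicyclohexyl phthalate (DCHP), a plasticizer, or to vehicle as the study describes it. There were 4 control and 5 DCHP libraries of PANDORA-seq, in which the RNA was treated with T4 polynucleotide kinase, which makes fragment ends fit for adapter ligation, and with AlkB, an enzyme that takes off base methyl groups at which reverse transcriptase stops, and 5 control and 5 DCHP libraries of traditional RNA-seq without these enzymes. Every library carries DCHP as its treatment label, so control and exposed libraries were told apart by their titles. Neither the strain, the number of animals behind a library nor a batch is given in the labels, and p-values therefore measure the spread between libraries.

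A tRNA that is cut in its anticodon loop leaves a 5′ piece and a 3′ piece of about the length of these reads, and the 5′ pieces of a few tRNAs are known to be among the most abundant small RNAs of mature sperm. Fragments of ribosomal RNA are the other large class of sperm small RNA. Their ends and methylated bases decide how well they enter a library, which is the reason for comparing PANDORA-seq with traditional RNA-seq. The reference used for matching held sequence for only 13 of 408 nuclear tRNA loci in RefSeq and the 5′ ends of another 4, and no 28S rRNA, so fragments of the other tRNAs and of 28S rRNA are among the members by the way the rule was built. The closest of 354 annotated rRNA transcripts differs by 3 bases from family 5 described below, which the 1 mismatch allowed did not match. Identities given below as general knowledge were not tested against a reference sequence.

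Members were grouped into 6580 families that share their first 20 bases and were numbered in order of level, which is the mean over the 4 groups in reads per 1000000 total reads (RPM). The sequence printed for a family is its most abundant member, 5′ to 3′. The first set shows leading families without a relation to a more abundant member family, with the shared first 20 bases in capitals. Their relation to sequences that the rule left out was not examined. Family 5 has, as general knowledge, the letters of the 3′ part of 5.8S rRNA, and families 6 and 16 have those of 28S rRNA.
family 5: AGGACACATTGATCATCGACacttcgaacg
family 6: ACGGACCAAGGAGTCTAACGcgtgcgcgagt
family 8: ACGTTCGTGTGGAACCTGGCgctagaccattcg
family 10: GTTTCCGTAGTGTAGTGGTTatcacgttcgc
family 11: AAATCGGTCGTCCGACCTGGgtatagggg
family 12: AAGAACGAAAGTCGGAGGTTcgaagacgac
family 14: ACCATCTGTGGGATTATGACtgaacgcctc
family 16: ATATTAGTCAGCGGAGGAAAagaaactaac
family 18: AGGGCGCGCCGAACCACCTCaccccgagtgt

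The second set surrounds family 1, the most abundant, which has the letters of the 5′ end of 28S rRNA as general knowledge. It shows starts that lie 1 base before (family 31), 1 base inside (family 4) and 3 bases inside (family 39) the start of family 1, and 2 substitutions, in capitals.
family 31: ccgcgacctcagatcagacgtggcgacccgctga
family 1: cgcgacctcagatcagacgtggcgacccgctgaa
family 4: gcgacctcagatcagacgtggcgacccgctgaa
family 39: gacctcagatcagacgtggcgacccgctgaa
family 36: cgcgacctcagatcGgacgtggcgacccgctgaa
family 40: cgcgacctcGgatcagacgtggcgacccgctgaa

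The third set surrounds family 2, which has the letters of the 5′ end of the glycine tRNA with the anticodon GCC as general knowledge. It shows families that differ from it by 1 substituted base, in capitals, by 1 missing G of bases 6 and 7 (family 7), or by a start 1 base inside (family 45).
family 2: gcattggtggttcagtggtagaattctcgc
family 3: gcattTgtggttcagtggtagaattctcgc
family 27: gcatGggtggttcagtggtagaattctcgc
family 33: gcattAgtggttcagtggtagaattctcgc
family 7: gcattgtggttcagtggtagaattctcgc
family 45: cattggtggttcagtggtagaattctcgc

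The fourth set holds other families with the look of tRNA 5′ ends. Family 15 is the histidine tRNA n-THgtg7 with 1 added G, and family 41 is the same tRNA without it. Family 13 is the mitochondrial histidine tRNA mt-Th with 2 G before its annotated first base. These bases are in capitals, and whether the genome holds any of them at that place was not tested.
family 15: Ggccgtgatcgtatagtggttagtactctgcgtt
family 41: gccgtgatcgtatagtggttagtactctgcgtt
family 13: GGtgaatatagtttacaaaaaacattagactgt

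The members took a similar part of the reads in control and DCHP sperm. Of all reads, they held 12.2% ± 1.51 (SD, n = 4) in PANDORA-seq control, 12.7% ± 1.35 (SD, n = 5) in PANDORA-seq DCHP, 16.4% ± 1.79 (SD, n = 5) in traditional control and 17.4% ± 1.77 (SD, n = 5) in traditional DCHP libraries. The PANDORA-seq libraries ranged from 10.1% to 14.2% and the traditional ones from 15.2% to 19.5%, so the ranges of the methods did not overlap. Of the reads of 29 to 34 nt, members held 38.8% in control and 42.1% in DCHP by PANDORA-seq, and 33.8% and 36.8% by traditional RNA-seq. Of the reads of this size that also start with A, C or G and do not end in CCA, members held 56.2% ± 9.41 and 60.2% ± 9.95 (SD, n = 4 and 5) in PANDORA-seq, against 87.0% ± 4.28 and 89.1% ± 2.47 (SD, n = 5 each) in traditional RNA-seq. Most of the sequences of this size that the rule left out were those starting with T, of which 16444 of 19514 were unmatched too.

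The rule found 9098 members through 4 or more PANDORA-seq libraries, 9481 through 4 or more traditional libraries, 3497 of them through both, and 592 through neither method alone. Only 1245 members had 10 reads in all 19 libraries, while 155 had no read in any traditional and 671 no read in any PANDORA-seq library. At the edge of the rule, 2097 members reached 10 reads in exactly 4 libraries, with a median level of 0.138 RPM (0.0656 to 0.832 RPM). Outside it, 2965 sequences reached 10 reads in exactly 3 libraries, with a median of 0.113 RPM (0.0498 to 1.26 RPM). With a minimum of 20 reads there would be 8682 members. The 18S rRNA in the annotation lies on the strand opposite to the rRNA, and it was read on the strand of the rRNA. Without that step 2013 further sequences would have been members, 17687 in all.

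Total reads ranged from 21588335 to 56506344 per library. Reads on miRNA hairpins stand here for the miRNA total to which the study normalizes, which the study assigned with other software, so the totals can differ. These hairpin reads ranged from 283683 to 758477 in PANDORA-seq and from 1119719 to 8830574 in traditional RNA-seq. Counting error is therefore small for the leading families, and it covers the counting of reads only, since the reads carry no molecular identifiers. In PANDORA-seq few of the hairpin reads were on hairpins with mostly 20 to 24 nt reads, 7906 to 52401 per library. Traditional control replicate 2 stood apart, with the 8830574 hairpin reads and with the liver miRNA Mir122 at 70134 RPM, against 783 to 10716 RPM in the other traditional libraries. Markers of red blood cells and of leukocytes were also highest there, at 89.7 and 77.5 RPM. In the other traditional libraries they were at 2.16 to 13.6 and 3.07 to 17.5 RPM. Germ line miRNAs (3 of 3 markers) were read in every library, at 0.902 to 6.46 RPM in PANDORA-seq and 87.1 to 462 RPM in traditional RNA-seq. In PANDORA-seq they did not overlap between the exposure groups, at 0.902 to 1.062 RPM in control and 1.099 to 6.46 RPM in DCHP. The other marker sets overlapped there. In traditional libraries the 2 smooth muscle markers summed to 1366 to 6928 RPM and the 5 epithelial markers to 553 to 4430 RPM. The means of traditional control and DCHP were 922 and 2141 RPM for the epithelial and 3662 and 4039 RPM for the smooth muscle markers. They were 148 and 289 RPM for the germ line markers and 17170 and 4605 RPM for Mir122. The ranges of traditional control and DCHP overlapped for each. The part of these markers in the results below was not tested, and in sperm RNA as a whole fewer cells of a type and less RNA per cell cannot be told apart.

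A handful of families held most of the reads. The 2 leading families held 43.6% ± 4.73 and 42.0% ± 7.08 (SD, n = 4 and 5) of all member reads in PANDORA-seq control and DCHP, against 69.8% ± 3.62 and 68.9% ± 1.80 (SD, n = 5 each) in traditional control and DCHP. The 20 leading families held 73.8% and 74.0% in PANDORA-seq and 85.2% and 85.5% in traditional RNA-seq. Of the 6580 families, 3989 had 1 member, 2462 had 2 to 9, and 129 had 10 or more.

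Family 1, at the 5′ end of 28S rRNA as general knowledge, was of like abundance in every group. In PANDORA-seq it was at 37604, 43722, 65387 and 53398 RPM in the control libraries and 31831, 49112, 63742, 61763 and 45043 RPM in the DCHP libraries. In traditional RNA-seq it was at 43661, 51783, 49227, 46789.9 and 81312 RPM in the control libraries and 47543, 47144, 49773, 46791 and 54292 RPM in the DCHP libraries. All groups overlapped, and traditional control replicate 5 was the highest of all libraries. Family 2, the glycine tRNA 5′ end, differed widely between the methods. In PANDORA-seq it was at 4258, 2779, 1872 and 4175 RPM in the control libraries and 3264, 3137, 2417, 3682 and 4448 RPM in the DCHP libraries. In traditional RNA-seq it was at 60175, 61972, 50864, 65748 and 62680.1 RPM in the control libraries and 87912, 58546, 80288, 76161 and 52479 RPM in the DCHP libraries. Every traditional library lay above every PANDORA-seq library, and control and DCHP overlapped in both methods.

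The next families took the side of one method or the other. Family 4, which starts 1 base inside family 1, was at 7730.1, 3217, 11780.3 and 10582 RPM in the control libraries and 7415, 7199, 5883, 10149.5 and 21195 RPM in the DCHP libraries in PANDORA-seq. In traditional RNA-seq it was at 434, 205, 339.8, 322 and 577 RPM in the control libraries and 262, 210.2, 197, 488 and 429 RPM in the DCHP libraries. All PANDORA-seq libraries were above all traditional ones, and PANDORA-seq DCHP replicate 5 was far above the rest. Family 5, with the letters of 5.8S rRNA as general knowledge, was at 5464, 11223, 7825 and 6204 RPM in the control libraries and 12453, 5115, 10612, 10152 and 3764 RPM in the DCHP libraries in PANDORA-seq. It was at 1194, 311, 1423, 1536 and 258 RPM in the control libraries and 515, 370.0, 581, 215 and 83.03 RPM in the DCHP libraries in traditional RNA-seq. It was again higher in every PANDORA-seq than in every traditional library, and the exposure groups overlapped.

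Further families high in PANDORA-seq had group means, in control and DCHP, of 5198 and 6079 RPM (family 6), 3416 and 3748 RPM (family 8), 2048 and 2169 RPM (family 11), 1816 and 1621 RPM (family 12), 1769 and 1339 RPM (family 14), 1253 and 1212 RPM (family 16) and 971 and 1259.6 RPM (family 18). In traditional RNA-seq the same families had means of 369.5 and 169, 99.8 and 90.9, 379 and 149.7, 329 and 178, 240.3 and 163, 91.7 and 58.7, and 19.8 and 18.4 RPM. Family 18 was the most one-sided of these, 48.9-fold higher per total read in PANDORA-seq control and 68.4-fold in PANDORA-seq DCHP, or 119-fold without traditional DCHP replicate 2. That library also raised the traditional DCHP means of families 6 and 8, which were 81.4 and 55.99 RPM without it. For family 12 the PANDORA-seq DCHP mean was 1072 RPM without replicate 3. Family 17, of which the leading sequence lies in the 3′ untranslated region of Lars2 (mitochondrial leucyl-tRNA synthetase), had 1466 ± 925 RPM (SD, n = 4) and 993 ± 437 RPM (SD, n = 5) in PANDORA-seq control and DCHP. It had 74.3 ± 72.97 and 32.9 ± 21.7 RPM (SD, n = 5 each) in traditional control and DCHP, and 42.9 RPM in traditional control without replicate 3.

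The families with the look of tRNA 5′ ends were high in traditional RNA-seq. Family 10 matches the 5′ end of the valine tRNA n-TVcac9, at chromosome 13, 23446142 to 23446214, minus strand (GRCm38). Since most tRNA loci had no sequence to match, whether its reads come from this locus or from another copy with the same 5′ end was not tested, and the same holds for n-THgtg7. In PANDORA-seq it was at 442, 275, 80.2 and 154 RPM in the control libraries and 201, 221, 127, 178 and 194 RPM in the DCHP libraries. In traditional RNA-seq it was at 1841, 1578, 1514, 1212 and 1364 RPM in the control libraries and 2712, 2546, 3367, 2694 and 2899.7 RPM in the DCHP libraries. The 5 traditional DCHP libraries were all above the 5 traditional controls, while the PANDORA-seq DCHP libraries lay within the range of their controls. Family 13, the mitochondrial histidine tRNA mt-Th (mitochondrial genome 11546 to 11612, plus strand) with 2 G before its annotated start, was at 8.06, 13.99, 30.5 and 17.2 RPM in the control libraries and 21.1, 12.05, 28.9, 39.1 and 13.6 RPM in the DCHP libraries in PANDORA-seq. In traditional RNA-seq it was at 664, 685, 1416, 865 and 2653 RPM in the control libraries and 2047, 1030.0, 2285, 3458 and 2842 RPM in the DCHP libraries. The traditional libraries were all above the PANDORA-seq libraries, and the exposure groups overlapped.

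Family 15, which matches the nuclear histidine tRNA n-THgtg7 (chromosome 3, 96452495 to 96452556, plus strand, the part of the locus that was used), had means of 101.2 and 78.3 RPM in PANDORA-seq and 1579 and 1365 RPM in traditional RNA-seq, control first. An added G before the first base is a known feature of mature histidine tRNAs. Of the relatives of family 2, family 3 had 839, 859, 11458 and 13171 RPM in PANDORA-seq control, PANDORA-seq DCHP, traditional control and traditional DCHP. In the same order, family 7 had 177, 193, 3698 and 4737 RPM, and family 27 had 25.2, 23.3, 591 and 692 RPM.

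By Spearman correlation of RPM over the 19 libraries, among 1924 member families compared, the families most like family 2 were 196, 228 and 282 (rho from 0.981 to 0.984), those most like family 5 were 281, 327 and 318 (0.995 to 0.996), and those most like family 10 were 291, 471 and 769 (0.972 to 0.989). Family 1 had weaker partners, with 330 the closest at 0.802. All of these differ by 1 substituted base from the family they resemble, or, for family 2, from its variant family 3, so they are not separate sequences with a like profile. These values describe libraries of both methods together and say nothing of shared function.

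Read lengths within a family, counted over the members of 29 to 34 nt, differed between the methods in most of the comparisons made. Family 1 ended mostly at 33 nt in PANDORA-seq (61.9% ± 3.96 of its reads in control, SD, n = 4, and 58.9% ± 4.38 in DCHP, SD, n = 5) and mostly at 34 nt in traditional RNA-seq (70.8% ± 2.47 and 61.7% ± 6.92, SD, n = 5 each). Its share at 34 nt was 37.2% and 40.2% in PANDORA-seq. The groups of the methods did not overlap (exact permutation test, adjusted p = 0.0212 in control and in DCHP). Between DCHP and control the share at 34 nt fell short of the threshold in traditional RNA-seq, with 61.7% against 70.8% (exact p = 0.0238, adjusted p = 0.0529). Family 2 had 43.5% ± 5.09 and 47.6% ± 1.95 of its reads at 31 nt in PANDORA-seq control and DCHP, against 9.57% ± 1.74 and 8.54% ± 0.945 in traditional RNA-seq, where 29 and 30 nt together held most reads (exact permutation test, adjusted p = 0.0212 for each).

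Family 10 was longer in PANDORA-seq as well. At 33 nt it had 44.0% ± 9.41 and 45.9% ± 8.12 of its reads in PANDORA-seq control and DCHP against 10.7% ± 3.07 in traditional control and 6.96% to 12.3% in traditional DCHP (exact permutation tests, adjusted p = 0.0212 for each). Family 15 went the other way, with 32.3% to 38.7% in PANDORA-seq control and 37.6% ± 4.07 in PANDORA-seq DCHP at 34 nt against 53.5% ± 1.36 and 57.5% ± 3.11 in traditional RNA-seq (exact test, adjusted p = 0.0212 for each). Family 6 was mostly of 1 length, with 95.5% ± 1.19 and 96.1% ± 0.573 of its reads at 31 nt in PANDORA-seq and 89.6% ± 4.09 and 87.9% ± 7.96 in traditional RNA-seq. This share was higher in PANDORA-seq without overlap in DCHP (adjusted p = 0.0212, exact), while the control libraries overlapped (adjusted p = 0.1003, exact). Family 5 overlapped in both exposure groups, with 54.7% ± 6.53 and 60.6% ± 7.36 of its reads at 30 nt in PANDORA-seq and 49.1% ± 7.83 and 49.9% ± 10.9 in traditional RNA-seq (adjusted p = 0.412 and 0.188, exact). For this family DCHP was 5.87 percentage points above control in PANDORA-seq, against 5.68 points between the methods in control. Of 20 comparisons between the methods over 10 families 16 passed an adjusted p of 0.05, and of 20 between DCHP and control 0 passed (smallest adjusted p = 0.0529, exact, all 40 adjusted together). The 1 length compared in each family followed no stated rule. In families 2 and 10 it was not the length of the leading sequence, which was 30 and 31 nt. The method differences in length are therefore descriptions, and their p-values are no support.

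Over all members, length and first base also separated the methods, in shares that depend on which sequences reached the minimum of reads. Members of 33 nt held 38.6% ± 4.04 and 37.8% ± 4.47 (SD, n = 4 and 5) of member reads in PANDORA-seq control and DCHP and 9.55% ± 1.14 and 10.6% ± 2.02 (SD, n = 5 each) in traditional control and DCHP. Members of 30 nt held 14.3% and 13.9% in PANDORA-seq against 29.5% and 33.3% in traditional RNA-seq (exact permutation test, adjusted p = 0.0179 in control and in DCHP). Members starting with A held 34.4% ± 7.25 and 34.2% ± 9.44 in PANDORA-seq against 4.69% ± 2.17 and 3.03% ± 1.18 in traditional RNA-seq, and those starting with G held 19.3% ± 4.42 and 20.5% ± 6.83 against 55.7% ± 4.42 and 62.2% ± 5.19 (exact tests, adjusted p = 0.0179 for each of the 4). The share of members of 34 nt, 22.3% and 23.1% against 26.998% and 20.99%, did not pass in either exposure group (adjusted p = 0.0840 and 0.495, exact). As these are shares of 1 total, a higher share of one kind lowers the others. The members were chosen by their reads in these same libraries, so the differences are descriptions and the p-values no support.

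A sequence pattern shared by most tRNA 5′ ends was searched in every member on the strand of the read: T at base 8, A at base 14 and GG starting 2 to 6 bases after that A. It was found in 2591 of the 15674 members (16.5%), against 13.1% of all detected sequences of 29 to 34 nt and 1.94% of those matched to rRNA. Members with the pattern held 7.86% ± 2.29 and 8.32% ± 1.89 (SD, n = 4 and 5) of member reads in PANDORA-seq control and DCHP. In traditional RNA-seq they held 50.0% ± 4.72 and 55.3% ± 5.44 (SD, n = 5 each), above every PANDORA-seq library (exact permutation test, adjusted p = 0.0179 in control and in DCHP). Since members entered by their reads in these same libraries, many through 1 method alone, this method difference is a description. The libraries of DCHP and control overlapped in this share by PANDORA-seq (exact p = 0.730, adjusted p = 0.848) and by traditional RNA-seq (exact p = 0.143, adjusted p = 0.224). Family 8 holds these letters and was nonetheless high in PANDORA-seq, so a match is a description of the letters. Its means of 3416 and 3748 RPM in PANDORA-seq control and DCHP were above those of family 2 there, 3271 and 3390 RPM. It thus made up a large part of the PANDORA-seq reads with the pattern. Weighted by level, members with the pattern had a GC content of 49.9% and a length of 30.1 nt, and those without it 61.0% and 32.4 nt. The B box, the inner promoter element of tRNA genes, was searched without mismatch on the strand of the read and found in 233 members (1.49%), against 0.680% of all detected sequences of this size, and these held at most 0.752% of member reads in any library.

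By origin, 12200 members matched no transcript used here, and they held 95.0% and 95.8% of member reads in PANDORA-seq control and DCHP and 96.0% and 94.9% in traditional control and DCHP. Protein-coding transcripts took 2146 members from 648 genes. These held 4.22% ± 1.36 and 3.62% ± 0.594 (SD, n = 4 and 5) of member reads in PANDORA-seq against 0.614% ± 0.401 and 0.458% ± 0.187 (SD, n = 5 each) in traditional RNA-seq. Most of these reads in PANDORA-seq were on Lars2, described below, and their source was not tested. Lars2 was at 4190 and 3723 RPM there, and the next such gene, Akr1b7, at 65.3 and 72.1 RPM. Nuclear tRNA loci took 583 members, with 0.357% ± 0.234 and 0.263% ± 0.0803 in PANDORA-seq against 2.36% ± 0.382 and 2.99% ± 0.589 in traditional RNA-seq. The mitochondrial tRNA mt-Th with bases before its annotated start took 158 members, with 0.0146% and 0.0187% against 0.811% and 1.48%. All 6 of these method differences passed (adjusted p = 0.0179, exact permutation tests, 36 comparisons of shares), and 0 of the 18 comparisons of DCHP with control passed (smallest adjusted p = 0.127, exact). Members entered by their reads in these same libraries, many through 1 method alone. The method differences are therefore descriptions, and their p-values are no support for a difference. Other transcripts took 512 members, the strand opposite to a transcript 58, and mitochondrial mRNA 17.

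Lars2 stood out among the protein-coding genes, with 597 members in 254 families, 276 matched exactly and 321 with 1 mismatch. All lie in its 3′ untranslated region between 123461800 and 123462170 on chromosome 9, plus strand. They summed to 4190 RPM ± 989 and 3723 RPM ± 244 (SD, n = 4 and 5) in PANDORA-seq control and DCHP, and to 564 RPM ± 423 and 384 RPM ± 219 (SD, n = 5 each) in traditional control and DCHP. Without annotation of repeats, whether these reads come from Lars2 or from another copy of the sequence was not tested. Members in mRNAs known from sperm and epididymis were found as well. Akr1b7, an aldose reductase, had 82 members at 65.3 and 72.1 RPM in PANDORA-seq and 21.7 ± 22.3 and 7.23 ± 6.14 RPM (SD, n = 5 each) in traditional RNA-seq. The latter were 12.6 RPM without control replicate 3 and 4.67 RPM without DCHP replicate 1. Crisp1, a secreted protein of the epididymis that coats sperm, had 50 members at 33.3 ± 5.90 and 39.6 ± 14.2 RPM against 10.6 ± 7.92 and 5.61 ± 2.16 RPM. Odf1, of the outer dense fibres of the sperm tail, had 15 members at 11.6 and 11.5 RPM against 0.705 RPM (0.463 RPM without control replicate 3) and 0.742 RPM. Smcp, of the mitochondrial capsule of the sperm tail, was the reverse, with 45 members at 9.87 and 10.6 RPM in PANDORA-seq and 46.4 and 41.2 RPM in traditional RNA-seq. Tmem38b, an ion channel gene, had 34 members at 58.4 and 54.2 RPM against 173 ± 58.5 and 254 ± 119 RPM. The long nuclear RNAs Neat1 and Malat1 had 128 and 109 members, Neat1 at 150.6 ± 113.9 and 89.7 ± 27.9 RPM in PANDORA-seq and 6.12 ± 3.13 and 2.89 ± 3.25 RPM in traditional RNA-seq, each pair in the order control and DCHP. Neat1 was at 94.8 RPM without PANDORA-seq control replicate 3 and at 1.46 RPM without traditional DCHP replicate 2.

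Many families were close relatives of a more abundant one. Of the 6580 families, 2335 (35.5%) differed from one by 1 substituted base, 96 by 1 missing base, 825 started 1 to 5 bases inside it and 869 started before it, while 2455 (37.3%) had no such relation. The families without a relation held 76.9% and 75.7% of member reads in PANDORA-seq and 79.0% and 78.2% in traditional RNA-seq. Single members that differed by 1 base from a member 20 times as abundant numbered 7173 (45.8%). They held 5.80% ± 0.118 and 6.03% ± 0.260 (SD, n = 4 and 5) of member reads in PANDORA-seq against 10.8% ± 1.06 and 10.9% ± 0.988 (SD, n = 5 each) in traditional RNA-seq. A rare variant could become a member through the method in which its parent is high, so these shares are descriptions.

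In family 2 a single substitution stood far above the others. Family 3, which has G6T against family 2 (positions counted from 1 at the 5′ end), was read at 25.2% ± 2.71 and 25.2% ± 1.21 (SD, n = 4 and 5) of the level of family 2 in PANDORA-seq control and DCHP, and at 18.9% ± 3.43 and 18.3% ± 2.37 (SD, n = 5 each) in traditional control and DCHP. The DCHP libraries of the methods did not overlap (exact permutation test, adjusted p = 0.0317), while those of control did (adjusted p = 0.130, exact). At the same base, G6A (family 33) was at 0.496% and 0.492% in PANDORA-seq and 0.683% and 0.693% in traditional RNA-seq, and T5G (family 27) was at 0.746%, 0.699%, 0.984% and 0.997% in the 4 groups in the order above. Over the first 20 bases of family 2, 59 substitution families were found, with a median of 0.0265% of family 2 in PANDORA-seq control and 0.0699% in traditional control. For comparison, family 1 also had 59 and family 5 had 58, with highest ratios of 0.372% and 0.446% in PANDORA-seq control and 0.485% and 1.32% in traditional control. The median of transitions was above that of other changes in PANDORA-seq control, with 0.122% and 0.0129% for family 1, 0.199% and 0.0156% for family 2 and 0.240% and 0.0117% for family 5. The highest single ratio was nonetheless a transversion in family 2 (G6T) and, in traditional control, in family 5 (A1C at 1.32%). The ratio of family 3 was chosen for testing after the values were seen, so its p-values are no support for a method difference. The source of these variants was not tested.

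Loss of 1 G of bases 6 and 7 was seen in family 2. Family 7, the form without it, was at 5.35% ± 0.933 (SD, n = 4), 5.70% ± 0.509, 6.15% ± 0.310 and 6.70% ± 0.475 (SD, n = 5 each) of family 2 in the 4 groups, and no comparison of this ratio passed (smallest adjusted p = 0.0774, exact).

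Starts around family 1 were spread differently by the methods. The start 1 base inside (family 4) was at 16.4% ± 6.15 and 22.1% ± 14.8 (SD, n = 4 and 5) of family 1 in PANDORA-seq against 0.696% ± 0.212 and 0.645% ± 0.269 (SD, n = 5 each) in traditional RNA-seq (exact permutation test, adjusted p = 0.0317 in control and in DCHP). In PANDORA-seq DCHP it ranged from 9.23% to 47.1%, the latter in replicate 5. The start 1 base before (family 31) was at 0.694% and 0.728% against 0.298% and 0.378% (adjusted p = 0.0317 for each, exact). A read starting there with the 3′ end of a 34 nt family 1 read is over 34 nt and was not counted. Reads of 34 nt were 37.2% and 40.2% of family 1 in PANDORA-seq control and DCHP, against 70.8% and 61.7% in traditional RNA-seq. The test of family 31 therefore cannot tell a difference in starts from one in read length. Starts 2 bases inside were at 0.234% and 0.237% against 0.330% and 0.383%. Around family 5 the start 1 base inside (family 21) was at 11.6% and 12.8% in PANDORA-seq and 7.88% and 9.41% in traditional RNA-seq, which overlapped. The start 2 bases before family 5 (family 158) was at 0.620% and 0.620% in PANDORA-seq against 4.28% and 6.61% in traditional RNA-seq. Around family 2 the start 1 base inside (family 45) stayed at or below 1.23% in every library. The start 2 bases inside family 2 (family 187) was at 0.821% and 0.816% against 0.0630% and 0.0495%. The starts of families 158 and 187 were not tested. For n-THgtg7, the form without the added G (family 41) was at 33.8% ± 11.8 and 37.1% ± 6.91 of the form with it (family 15) in PANDORA-seq and at 24.4% ± 5.39 and 27.9% ± 5.79 in traditional RNA-seq, which overlapped. Of 13 such ratios in 52 comparisons, adjusted together, 13 of 26 comparisons between the methods and 0 of 26 between DCHP and control passed. The smallest was that of family 45 in PANDORA-seq, 0.452% in DCHP against 0.304% in control (exact p = 0.0159, adjusted p = 0.0590). The families of these ratios were chosen after their values were seen. The method differences are therefore descriptions, and their p-values are no support.

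To see whether exposure changed a family, DCHP was compared with control within each method by edgeR's quasi-likelihood test on family counts, with hairpin reads as library size and with all families of 29 to 34 nt in 1 fit. Calls needed an adjusted p under 0.1 together with a change of over 2-fold. In PANDORA-seq 0 of 4614 member families tested were called, of 9403 families in the fit, of which 0% were called. In traditional RNA-seq 0 of 3456 were called, of 11998 in the fit, of which again 0% were called. An unadjusted p below 0.05 was reached by 141 member families in PANDORA-seq, or 3.06%, against 2.74% of all families, and by 233 in traditional RNA-seq, or 6.74%, against 5.17% of all. Leaving out 1 library moved these counts to between 76 (without DCHP replicate 4) and 244 (without DCHP replicate 3) in PANDORA-seq. These were 1.65% and 5.29% of members, against 1.57% and 5.09% of all families in the same fits. In traditional RNA-seq the counts lay between 183 (without control replicate 4) and 385 (without control replicate 2), and at 422 per total read. These were 5.30%, 11.1% and 12.2% of members, against 6.56%, 7.03% and 8.85% of all families. DESeq2 called 1 member family (higher) in PANDORA-seq, or 0.0217%, against 0.0213% of all families. By traditional RNA-seq it called 43 (1 higher, 42 lower), or 1.24%, against 0.817% of all families (3 higher, 95 lower).

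The differences of the leading families had wide errors, and 0 of them were called. As log2 DCHP over control per hairpin read with its SE, family 1 was at 0.13 ± 0.35 by PANDORA-seq and at -0.22 ± 0.46 by traditional RNA-seq, family 2 at 0.19 ± 0.36 and 0.20 ± 0.48, and family 4 at 0.48 ± 0.44 and -0.51 ± 0.52. Family 5 was at 0.19 ± 0.42 and -1.48 ± 0.71, family 11 at 0.18 ± 0.39 and -1.39 ± 0.63, and family 13 at 0.50 ± 0.45 and 0.68 ± 0.54. Family 6 was at 0.26 ± 0.48 and -1.14 ± 0.81, and family 17 at -0.39 ± 0.44 and -1.11 ± 0.68. In traditional RNA-seq the estimates for families 5, 6, 11 and 17 were thus over 2-fold lower in DCHP without passing the test. Family 10, the valine tRNA whose traditional RPM did not overlap, was at 0.87 ± 0.46 in traditional RNA-seq (edgeR, adjusted p = 0.952) and at -0.24 ± 0.44 in PANDORA-seq. Adjusted p for the leading families described above was 0.946 or above in both comparisons (edgeR).

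In PANDORA-seq the 3 member families with the smallest p were 6461, 671 and 1604. Family 671 differs by T2C from the more abundant family 416, whose levels are not given here. It has the letters of the inner part of the arginine tRNA with the anticodon CCT as general knowledge. Its sequence is shown with the first 20 bases in capitals.
family 671: ACTGGCCTCCTAAGCCAGGGattgtgggtt
In PANDORA-seq it was at 1.22, 1.70, 1.43 and 3.52 RPM in the control libraries and 4.82, 12.4, 1.66, 10.02 and 15.5 RPM in the DCHP libraries. In traditional RNA-seq it was at 1.26, 0.441, 26.5, 9.08 and 0.496 RPM in the control libraries and 6.78, 0.973, 0.750, 0.188 and 0.0927 RPM in the DCHP libraries. In PANDORA-seq 4 of 5 DCHP libraries were above every control, and in traditional RNA-seq the groups overlapped. Its log2 difference was 2.31 ± 0.58 (edgeR, adjusted p = 0.999). Family 1604 had 2.40 ± 0.66 (adjusted p = 0.999) with 88 reads in control and 488 in DCHP (2.49 RPM, and 1.61 RPM without replicate 5), and family 6461 had 2.90 ± 0.56 (adjusted p = 0.615) with 8 and 70 reads. In traditional RNA-seq the smallest p belonged to families 5811, 4782 and 3736, with 5, 9 and 40 reads in control and 90, 117 and 177 in DCHP. Their log2 differences were 4.51 ± 1.08, 3.93 ± 0.95 and 2.66 ± 0.72 (adjusted p = 0.946 for each). These 3 families match no transcript used here, and as general knowledge their letters have the look of bacterial RNA, so whether they come from the mouse was not tested. They had 0, 1 and 0 reads in PANDORA-seq control and 1, 6 and 3 in PANDORA-seq DCHP.

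Single sequences gave no call either. Of the 20000 most abundant sequences of any length, 2237 (PANDORA-seq) and 2181 (traditional RNA-seq) were members, and 0 were called in each, while 0.01% and 0% of all 20000 were called (edgeR). An unadjusted p below 0.05 was reached by 38 and 87 members, or 1.70% and 3.99%, against 6.58% and 3.62% of all 20000. With 1 library left out these counts lay between 24 (without DCHP replicate 4) and 88 (without control replicate 2) in PANDORA-seq, or 1.07% and 3.93%, against 5.695% and 8.975% of all 20000. By traditional RNA-seq they lay between 57 (without control replicate 4) and 150 (without control replicate 2), or 2.61% and 6.88%, against 2.9% and 5.345% of all. Per total read 210 were reached there, or 9.63%, against 7.415% of all. DESeq2 called 3 and 23 members, or 0.134% and 1.05%, against 0.45% and 0.725% of all 20000. Whether the exposure effect differed between the methods was tested as an interaction over all 4 groups. Of 1750 member families with enough reads in both methods, 0 were called, of 3541 families of which 0% were called (DESeq2 called 0 members and 0.0565% of all). An unadjusted p below 0.05 was seen for 94, or 5.37%, against 4.83% of all families. This count was 153 per total read, or 8.74%, against 7.77% of all families. With 1 library left out it lay between 56 (without PANDORA-seq control replicate 1) and 252 (without traditional control replicate 2), with 224 without traditional DCHP replicate 2. These were 3.2%, 14.4% and 12.8% of members, against 3.05%, 13.5% and 11.3% of all families. Without traditional control replicate 2, 3 were called, or 0.171%, against 0.141% of all families. For family 10 the interaction was -1.11 ± 0.68 and for family 5 1.67 ± 0.98 on the log2 scale (edgeR, adjusted p = 0.833 for both).

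The methods themselves differed widely. Per hairpin read, 3558 of 3993 member families tested were called between PANDORA-seq and traditional RNA-seq in control sperm, 2624 higher and 934 lower in PANDORA-seq. Of all 11068 families of this size 92% were called, 49.5% higher and 42.5% lower. In DCHP sperm 4191 of 4535 member families were called, 3092 higher and 1099 lower, against 93.6% of 12650 families, 49.4% higher and 44.2% lower. Since a sequence could become a member through libraries of 1 method alone, and such a sequence had to differ, these counts describe the members and are no support for a difference. Per total read the members split into 1801 higher and 1354 lower in control and 2519 and 1498 in DCHP. All families leaned the other way on that scale, with 36.8% higher and 50.4% lower in control and 41.1% and 51.5% in DCHP. Per read on hairpins with mostly 20 to 24 nt reads the members split into 3416 and 14 in control and 3848 and 34 in DCHP, against 66.4% and 0.822% of all families in control and 65% and 2.13% in DCHP. The median log2 difference of all families was 1.13 and 0.81 per hairpin read and -1.22 and -1.67 per total read, in control and DCHP. It was 5.86 and 5.25 per read on hairpins with mostly 20 to 24 nt reads, the narrower hairpin total. Directions below are to be read against these medians.

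Of the leading families, 4, 5, 6, 8, 11, 12, 14, 16, 17 and 18 were higher in PANDORA-seq on each of these scales. Their log2 differences per hairpin read in control and DCHP were 6.64 ± 0.82 (SE, adjusted p = 1.07e-13) and 7.64 ± 0.62 (SE, adjusted p = 7.12e-09) for family 4. They were 5.24 ± 0.77 (SE, adjusted p = 2.23e-10) and 6.92 ± 0.74 (SE, adjusted p = 4.2e-08) for family 5, by edgeR as elsewhere. Families 6, 8, 11, 12, 14, 16 and 18 had values from 4.65 to 7.85 in control and from 5.41 to 8.48 in DCHP, and all were called. The Lars2 family 17 was at 6.62 and 7.34. Families 14, 16, 17 and 18 were named for their high level in PANDORA-seq in these same libraries. Their calls are therefore descriptions and no support for a difference. Family 1 turned with the scale. It was higher per hairpin read, 2.19 ± 0.68 (SE, adjusted p = 0.00183) in control and 2.54 ± 0.46 (SE, adjusted p = 3.44e-05) in DCHP, and was not called per total read, at -0.12 (adjusted p = 0.769) and 0.03 (adjusted p = 0.924).

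The tRNA-like families were lower in PANDORA-seq per hairpin read and per total read. Family 2 was at -1.91 ± 0.70 (SE, adjusted p = 0.00851) and -1.92 ± 0.47 (SE, adjusted p = 0.000614) per hairpin read, and at -4.20 and -4.39 per total read. With the narrower hairpin total the direction of families 2, 3, 7, 10, 13, 15 and 27 turned, family 2 to 2.94 in control and 2.50 in DCHP. That total shifted all families, and each of these families stayed below the median of all families, 5.86 and 5.25. Per hairpin read family 13 was the lowest of these families, at -3.90 ± 0.79 (SE, adjusted p = 2.79e-06) and -4.09 ± 0.51 (SE, adjusted p = 3.05e-07), and family 27 was at -2.42 in DCHP. Families 3, 7 and 15 were at -1.55, -2.07 and -1.80 in control and -1.48, -2.15 and -1.70 in DCHP. Families 13, 15 and 27 were named for their high level in traditional RNA-seq in these same libraries. Their calls and p-values are therefore descriptions and no support for a difference. Family 10 was not called in control, at -0.32 ± 0.67 (SE, adjusted p = 0.652), though per total read it was lower, at -2.66 (adjusted p = 6.06e-05). In DCHP it was called, at -1.43 ± 0.43 (SE, adjusted p = 0.00386) per hairpin read.

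By kind, and as a description since the rule used reads of both methods, 281 of 426 member families with the tRNA 5′ pattern were lower and 77 higher in PANDORA-seq in control, with a median log2 difference of -2.34, and 342 of 493 were lower and 100 higher in DCHP, with a median of -2.38. Families without the pattern had medians of 3.47 and 4.69, with 2547 of 3567 and 2992 of 4042 higher, against 49.5% and 49.4% of all families. Of families on nuclear tRNA loci 87 of 118 and 103 of 114 were lower, against 42.5% and 44.2% of all families. Lars2 had 181 of 190 and 195 of 202 families higher, against 49.5% and 49.4% of all families, with medians of 4.67 and 5.28. Families starting with A had medians of 4.02 and 5.47, those with C 1.01 and 1.36, and those with G 1.24 and 1.44. With the narrower hairpin total most of the lower calls were lost or turned, as all families shifted, to a median of 5.86 and 5.25. Of all families 66.4% and 65% were higher and 0.822% and 2.13% lower with that total. Of the families with the pattern 6 and 10 were then lower and 272 and 307 higher (medians 2.41 and 1.94), and of those on nuclear tRNA loci 2 and 2 were lower and 80 and 64 higher. Per total read the medians fell to -4.57 and -4.86 for families with the pattern and to 1.15 and 2.30 for those without it, and for families starting with C and G they turned negative, -1.28 and -1.12 for C and -1.10 and -1.11 for G. Of the Lars2 families 144 of 190 and 150 of 202 were higher per total read, against 36.8% and 41.1% of all families.

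The called families with the largest folds were rare ones that 1 method hardly read. They reached the minimum of reads through the other method alone, so their calls and folds are descriptions and no support for a difference. Higher in PANDORA-seq control were families 1694, 2086 and 2603, with 298, 298 and 171 reads against 0 in traditional control. A floor of 3 reads over the group makes them at least 128-fold, 115-fold and 82.6-fold higher per total read. Family 1694 lies in the coding part of Gapdhs, the glycolytic enzyme of the sperm tail. In DCHP they were families 1247, 1224 and 1813, with 605, 816 and 325 reads in PANDORA-seq against 1, 0 and 0 in traditional RNA-seq, so that families 1224 and 1813 were at least 239-fold and 101.2-fold higher. Family 1224 is family 4 with C5G, and family 1247 lies in the long RNA gene Gm26917.

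Lower in PANDORA-seq were variants of histidine tRNA 5′ ends and family 1336, a variant of the glycine tRNA family 2. They are shown in lower case after the first 20 bases.
family 996: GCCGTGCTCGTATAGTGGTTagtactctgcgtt
family 912: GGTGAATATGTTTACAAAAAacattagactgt
family 1104: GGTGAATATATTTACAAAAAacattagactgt
family 1237: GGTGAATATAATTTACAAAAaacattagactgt
family 1336: GCATTGATGGTTCAGAGGTAgaattctcgc
Family 996 is family 41, the histidine tRNA n-THgtg7 without its added G, with A7C, and had 922 and 877 reads in traditional control and DCHP against 0 in both PANDORA-seq groups, at least 241-fold and 348-fold lower per total read. Families 912 and 1104 are family 13 of mt-Th without its base 10 or 11. They had 697 and 572 reads in traditional control against 0 in PANDORA-seq control, at least 208-fold and 161-fold lower. Traditional control replicate 5 held much of family 912, which was at 4.12 RPM with it and 2.46 RPM without it. Family 1237 is family 13 with G11A, and family 1336 is family 129 with T16A, where family 129 is family 2 with G7A. In DCHP they had 852 and 640 reads in traditional RNA-seq against 0 in PANDORA-seq, at least 302-fold and 229-fold lower. Families 912 and 1104 were at 0.297% and 0.244% of family 13 in traditional control and at 0.314% and 0.236% in traditional DCHP. Family 13 itself had 2865 reads over the PANDORA-seq control libraries, so these variants were near the limit of depth there. The families of this set reached the minimum of reads in traditional libraries alone, so their calls and folds are descriptions.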

How the data were processed

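Small RNA of 15 to 50 nt was sequenced from mouse sperm in 19 libraries. The authors deposited, for each library, a list of distinct cleaned reads of 15 to 45 nt with their read counts, which are raw and carry no molecular identifiers. The cleaning settings are not given in the sources used here. The labels name the build mm10.

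Sequences with 10 or more reads in at least 4 of the 19 libraries were matched to GENCODE transcripts and RefSeq tRNA loci in sense, allowing 1 mismatch. Counts of reads sharing their first 20 bases were summed and tested with edgeR 4.0.16 (quasi-likelihood, R 4.3.3), with reads on miRNA hairpins as library size, families with 10 or more reads in at least 4 libraries, and Benjamini-Hochberg adjustment over all families of 29 to 34 nt. Calls needed an adjusted p under 0.1 together with a change of over 2-fold. Shares, lengths and ratios were compared by two-sided exact permutation tests (Python 3.11.15) of the difference of means, for which 0.00794 is the smallest p. Alternatives were total reads, narrower hairpins, TMM, DESeq2 1.42.0, other minima and prefixes, the replicate number as a block and leaving out each library. In DCHP libraries same-numbered samples of the methods deviated together (r from 0.109 to 0.369 in 5 of 5 pairs), and other comparisons were not paired. In 3 of these 5 pairs the closest partner had the same number. The main fits did not use the replicate numbers. The scripts were tested on simulated data. No 2 libraries of a group agreed within counting noise (smallest chi-square per degree of freedom 38.5 over 36 pairs).

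Named families were the 12 most abundant, the 4 next in each method, the 3 with the smallest p per exposure comparison and the 3 with the largest fold in each direction per method comparison. Families of the ratios and genes of origin were chosen after their values were seen. Some related families are not reported here, but stayed in the fits, the adjustments and the counts of comparisons. The members and lists were chosen with earlier results of these data known.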

Additional observations from a re-analysis of the deposited data

Results flagged for a closer look

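In 17 of 196 groups of 4 or 5 libraries checked, the highest or lowest library stood apart from the rest by Dixon's criterion, which chance gives in about 1 of 20 groups. In PANDORA-seq control replicate 2, members starting with A held 45.2% of member reads (group median 31.3%), those of 30 nt 19.5% (12.7%) and those of 34 nt 17.7% (23.7%). PANDORA-seq control replicate 1 had family 31 at 0.933% of family 1 (0.6249%) and the Lars2 family 17 at 2839 RPM (1103 RPM). Replicate 3 of that group had family 27 at 0.587% of family 2 (0.798%).

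In PANDORA-seq DCHP replicate 3, family 45 was at 0.633% of family 2 (0.436%) and family 36 at 0.327% of family 1 (0.386%), and in replicate 5 family 4 was at 21195 RPM (7415 RPM). In traditional control, family 1 had 66.5% of its reads at 34 nt in replicate 2 (71.6%) and was at 81312 RPM in replicate 5 (49227 RPM), family 2 had 12.6% of its reads at 31 nt in replicate 3 (9.10%), family 13 had 65.3% at 33 nt in replicate 1 (58.8%), and family 17 was at 199.8 RPM in replicate 3 (42.2 RPM). In traditional DCHP, family 6 had 73.8% of its reads at 31 nt in replicate 5 (90.9%), and in replicate 2 families 6 and 18 were at 519 RPM (92.0 RPM) and 49.7 RPM (12.1 RPM). Of 49 values checked, 0 had exposure effects of opposite direction in every library of the methods.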

How the results depend on the processing

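For DCHP against control in PANDORA-seq, DESeq2 called 1 member family (0.0213% of all families) and a fit without the filter on low counts 11 (0.173% of members, 0.183% of all). In traditional RNA-seq DESeq2 called 43 (1.24% of members, 0.817% of all) and the replicate block 1 (0.0289% of members, 0.025% of all). Leaving out 1 library gave 0 in PANDORA-seq, 0 to 1 in traditional RNA-seq (1 without traditional control replicate 5, 0.0289% of members and 0.025% of all) and 0 to 3 for the interaction (3 without traditional control replicate 2, 0.171% of members and 0.141% of all). Of member sequences, the narrower hairpin total called 2 (0.31% of all sequences) and DESeq2 3 (0.45% of all) in PANDORA-seq, and DESeq2 called 23 in traditional RNA-seq (0.725% of all). Between the methods, calls in control numbered 5811 without the filter, 2081 at a minimum of 20 reads and 3439 to 3620 with 1 library left out, and in DCHP 2423 at a minimum of 20 reads and 4161 to 4222 with 1 left out, while 89.4% to 93.8% of all families were called in these fits. These minima and filters change how many families are tested, and the cause of the other changes was not tested. With the replicate block, calls numbered 3372 in control (84.4% of members, 88.2% of all families) and 4199 in DCHP (92.6% of members, 93.7% of all), and families 3 (adjusted p = 0.201) and 15 (adjusted p = 0.107) were no longer called in control, where the numbers do not pair the libraries. Family 1 turned to a log2 difference of -0.12 per total read, -0.42 with TMM and -0.73 with DESeq2 in control, and to -0.39 with TMM and -0.22 with DESeq2 in DCHP. With the narrower hairpin total, families 2, 3, 7, 10, 13, 15 and 27 turned to 2.94, 3.33, 2.77, 4.60, 0.68, 3.12 and 2.69 in control and to 2.50, 2.94, 2.25, 3.05, 0.53, 2.63 and 2.04 in DCHP. Those of family 13 did not pass (edgeR, adjusted p = 0.439 and 0.457). All of these values lay below the median of all families with that total, 5.86 and 5.25. That total had as few as 7906 reads in a PANDORA-seq library. The members' share of all reads ranged with 1 library left out from 11.7% to 12.8% and 12.3% to 13.02% in PANDORA-seq and from 15.6% to 16.7% and 16.9% to 17.98% in traditional RNA-seq, control and DCHP. Of the values for single families, 2133 kept their direction and side of the threshold, 8 passed it only under the alternative and 4 no longer passed it.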
